A study of Mus musculus with 6 samples.

Results

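Fibroblast growth factor (FGF) ligands, their receptors and the feedback genes of the pathway were examined in embryonic mouse hearts with and without a conditional knockout (CKO) of Trim28. Members were the genes whose symbol is Fgf followed by a number, Fgfr1 to Fgfr4, Fgfrl1, the Sprouty genes (Spry), the Spred genes, Dusp6, Etv4 or Etv5. This rule found 33 of the 30619 genes in the count table. Of these, 15 encode secreted ligands, 4 intracellular FGFs, 5 receptors and 9 feedback or target genes. No row carried the symbols Fgf4, Fgf20 or Fgf21, and these were not analysed here.

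Poly(A) RNA of whole hearts at E12.5, in mid-gestation, was sequenced in 6 libraries. The 3 control libraries carry the genotype label WT. The 3 other libraries are titled CKO, and their genotype label reads TRIM28 knockdown. The cells are described as a mixture of the cell types of the embryonic heart. TRIM28 is a co-repressor that zinc finger proteins bring to DNA. The promoter that drove the recombinase, the exons removed, the strain and the number of hearts in a library are not stated in the labels used here. No label says that libraries came from separate embryos or litters, so a p-value reflects only how these samples vary, which may be technical.

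FGF ligands are secreted, bind heparan sulfate on cell surfaces and activate receptor tyrosine kinases, which signal through the RAS-ERK cascade. ERK activity switches on ETS factors such as ETV4 and ETV5 and inhibitors such as the Sprouty and Spred proteins and DUSP6, which then damp the pathway. In the embryonic heart, FGF9 made by endocardium and epicardium acts on receptors of the myocardium, FGF8 and FGF10 act in progenitors of the outflow tract, and FGF10 later acts on epicardium-derived cells. The intracellular FGFs (FGF11 to FGF14) are not secreted in the usual way and bind the tails of voltage-gated sodium channels.

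The libraries held between 34400841 and 39763233 counts, and between 24641 and 27750 of them fell on the members. Trim28 was measured at 305, 391 and 443 CPM (counts scaled to library size) in controls 1 to 3, against 172, 314 and 165 CPM under the labels CKO 1, 2 and 3, with a log2 fold change (log2FC, CKO over control throughout) of -0.81 (SE 0.34, adjusted p = 0.339). The library labelled CKO 2 therefore lay inside the control range, and each direction given for CKO rests on the labels. The share of counts on a ribosomal RNA row, a measure of RNA selection or quality, was 0.126% to 0.522% in controls and 0.563% to 0.79% in CKO, with no overlap. Its part in the results was not tested beyond a fit with this share as a covariate, which left 53 genes higher and 3 lower. Because the share differed between the groups without overlap, that fit cannot tell the share and the group labels apart. A call lost in it, here or below, therefore does not show that the share was the cause. Among marker lists, the summed cardiomyocyte markers reached 19990.7 to 21465.1 CPM in controls and 21390 to 22303.6 in CKO, with 2 of 8 called higher (Myh6 and Myl7). Red cell markers summed to 1041 to 1811 CPM in controls and 928 to 1035 CPM in CKO with 0 of 6 called (median log2FC -0.49), and cushion and fibroblast markers overlapped, with 1 of 6 called lower. The part of these cell types in the results was not tested. Foregut and lung markers stayed between 0.465 and 1.9 CPM and liver markers between 0.581 and 0.935 CPM in all 6 libraries.

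Of the 33 members, 27 had enough counts to be tested. In edgeR's quasi-likelihood test, with Benjamini-Hochberg adjustment across the 17557 genes tested, 3 members passed an adjusted p of 0.05. Fgf11, an intracellular FGF, and Dusp6, the phosphatase that inactivates ERK, rose in CKO hearts, and Fgfr3, a receptor, fell. In RNA of whole hearts, fewer cells of a type and less RNA per cell cannot be told apart. Over all tested genes 4.1% were called, 3.03% as higher and 1.07% as lower. Without CKO 2, 5 members were higher (Fgf1, Fgf11, Fgf16, Fgf23 and Dusp6) and 2 lower (Fgf13 and Fgfr3), and all genes gave 1012 higher and 540 lower calls. In that fit Fgf16 met the count minimum only through its counts in CKO. With the ribosomal RNA covariate no member was called. The median log2FC was 0.02 for the 27 members and 0.00 for all tested genes. Signs were evenly spread, with 14 members positive and 13 negative. The median size of the change, whatever its sign, was 0.26 for the members and 0.13 for all tested genes.

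A weaker criterion held for more members. At an unadjusted p under 0.05, 9 of the 27 passed, where 17.8% of all tested genes did. The 3 control and 3 CKO libraries did not overlap for 13 of the 27, where this held for 22.1% of all tested genes. Of these 13, Fgf11, Fgf23, Dusp6, Spry1 and Fgfr1 were higher in CKO, and Fgf2, Fgf6, Fgf9, Fgf12, Fgf13, Fgf14, Fgfr3 and Spred2 were lower. No secreted ligand was called. The plot of fold changes sets these members beside each other.

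**Figure D1:**
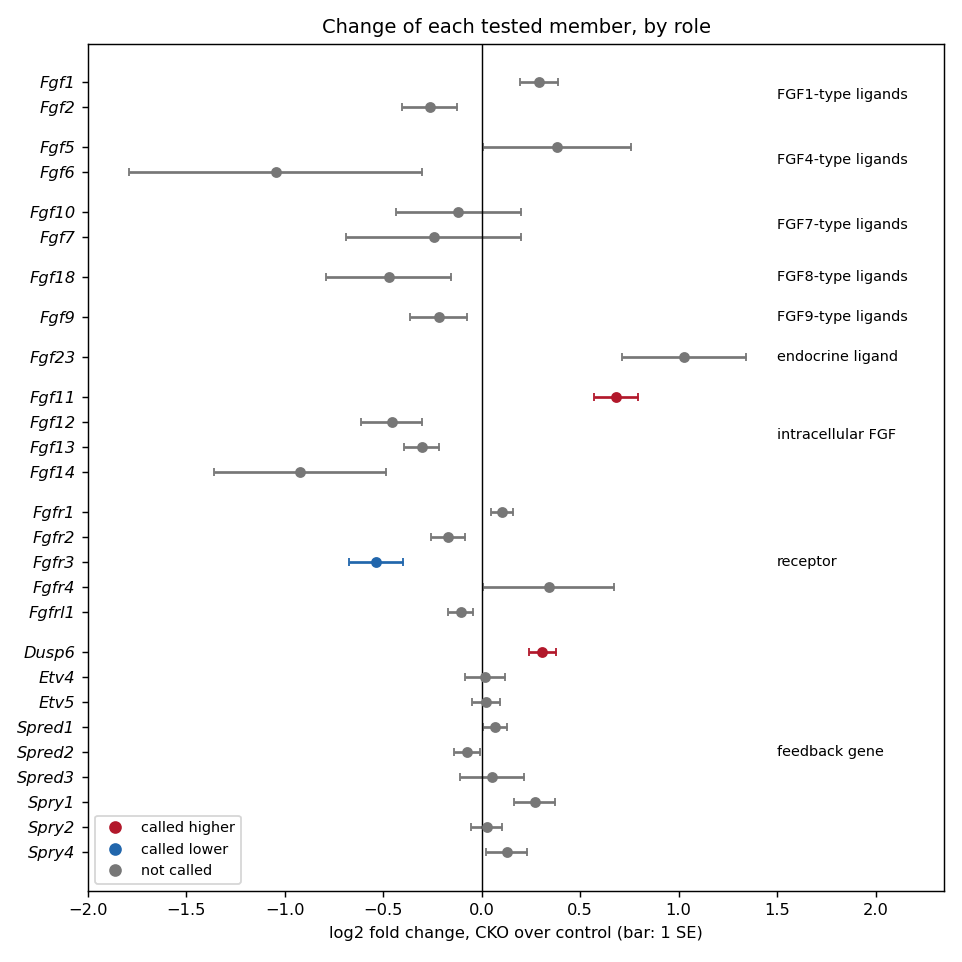
Log2FC (CKO over control) with its SE for the 27 tested members, grouped by role. Fgf11 and Dusp6 are called higher and Fgfr3 lower, while the widest error bars belong to sparsely counted genes such as Fgf6, Fgf7 and Fgf14.

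The stretches just before the starts of the 3 called genes are shown as the upstream DNA of the members that moved. They are RefSeq promoter windows on GRCm38.p6, the 250 bases before each transcription start, written 5′ to 3′ on the gene's strand with CpG sites in capitals. In that table Fgf11 has 1 start, upstream of the GENCODE M21 gene (chr11:69802281-69802530, minus strand), Dusp6 has 1 (chr10:99262981-99263230, plus strand), and Fgfr3 has an outer start (chr5:33721474-33721723, plus strand) and an inner one (chr5:33722056-33722305).
Fgf11: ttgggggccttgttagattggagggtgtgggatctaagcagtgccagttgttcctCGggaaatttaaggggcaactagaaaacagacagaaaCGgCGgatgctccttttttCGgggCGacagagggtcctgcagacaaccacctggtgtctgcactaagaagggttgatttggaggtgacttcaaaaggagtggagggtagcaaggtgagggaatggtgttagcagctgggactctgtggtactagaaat
Dusp6: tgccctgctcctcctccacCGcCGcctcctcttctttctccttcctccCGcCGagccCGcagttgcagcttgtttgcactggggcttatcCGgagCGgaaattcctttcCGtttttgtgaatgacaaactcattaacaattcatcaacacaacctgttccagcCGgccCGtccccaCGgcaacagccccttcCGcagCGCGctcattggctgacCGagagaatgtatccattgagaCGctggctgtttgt
Fgfr3, outer start: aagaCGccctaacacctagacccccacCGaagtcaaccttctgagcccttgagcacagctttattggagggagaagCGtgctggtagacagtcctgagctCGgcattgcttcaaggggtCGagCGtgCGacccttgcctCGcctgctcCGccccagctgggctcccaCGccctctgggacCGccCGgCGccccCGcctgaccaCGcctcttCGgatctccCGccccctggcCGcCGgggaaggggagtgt
Fgfr3, inner start: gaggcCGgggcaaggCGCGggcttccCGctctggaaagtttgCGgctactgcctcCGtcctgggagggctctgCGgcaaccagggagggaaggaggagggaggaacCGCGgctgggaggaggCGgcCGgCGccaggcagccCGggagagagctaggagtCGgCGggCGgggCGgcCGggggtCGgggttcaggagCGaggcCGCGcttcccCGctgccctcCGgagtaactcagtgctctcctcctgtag
The windows of the 3 genes differed in CpG content. They also lay at unlike places, with the Fgf11 window upstream of its GENCODE M21 gene and the inner Fgfr3 window inside its gene. The part of this placing was not tested. The Fgf11 window held 5 CpG sites and 51.2% G and C, close to the median window of all genes (6 sites and 52.4%, 32851 windows). The Dusp6 window held 16 sites (56.4% G and C). The Fgfr3 windows were the richest, with 19 sites (66.8%) and 24 sites (72.8%). Over the 33 windows of the 25 members that could be matched by symbol, the median was 18 sites and 62.4%.

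A pair of short motifs was looked for on both strands of these windows. CCGGAA, a longer form of the core of ETS sites, occurred in 12% of all windows, in at least 1 window of 13.6% of all genes, and likewise in 4 of the 25 matched members (16%). ACGTG, a form of the core of the hypoxia response element, occurred in 16.6% of all windows, in 18.5% of all genes and in 5 of the 25 members (20%). Both member shares are near those of all genes. Neither motif contains the other, and none of the 4 windows printed above holds either one. That says only that these letters are not in these windows, as other forms of either core were not searched for. The motifs and windows were chosen after the expression values were seen.

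Levels were compared between genes per kilobase of annotated exon (CPM per kb), on the control mean ± SD of 3 libraries. Fgfrl1, which encodes a receptor without a kinase domain, was the highest member at 24.1 ± 0.468. The feedback inhibitor Spry2 followed at 22 ± 1.46 and Dusp6 at 18.9 ± 1.52. Fgf13, Spred1 and Etv5 came next at 12.4 ± 0.844, 11.9 ± 0.669 and 11.6 ± 0.737, which differ by less than the SD of Fgf13. Most inhibitors and receptors thus stood above the secreted ligands, with Fgfr3, Fgfr4 and Spred3 among the exceptions. The highest secreted ligand was Fgf1, an FGF that lacks a signal peptide, at 3.98 ± 0.232, and Fgf18, Fgf9 and Fgf2 lay near each other at 1.68 ± 0.488, 1.65 ± 0.0409 and 1.43 ± 0.0126. In CKO hearts Dusp6 was highest at 23.4 ± 0.73, and Fgfrl1 (22.4 ± 1.47) and Spry2 (22.4 ± 2.19) lay below it by less than their own SDs.

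**Figure D2:**
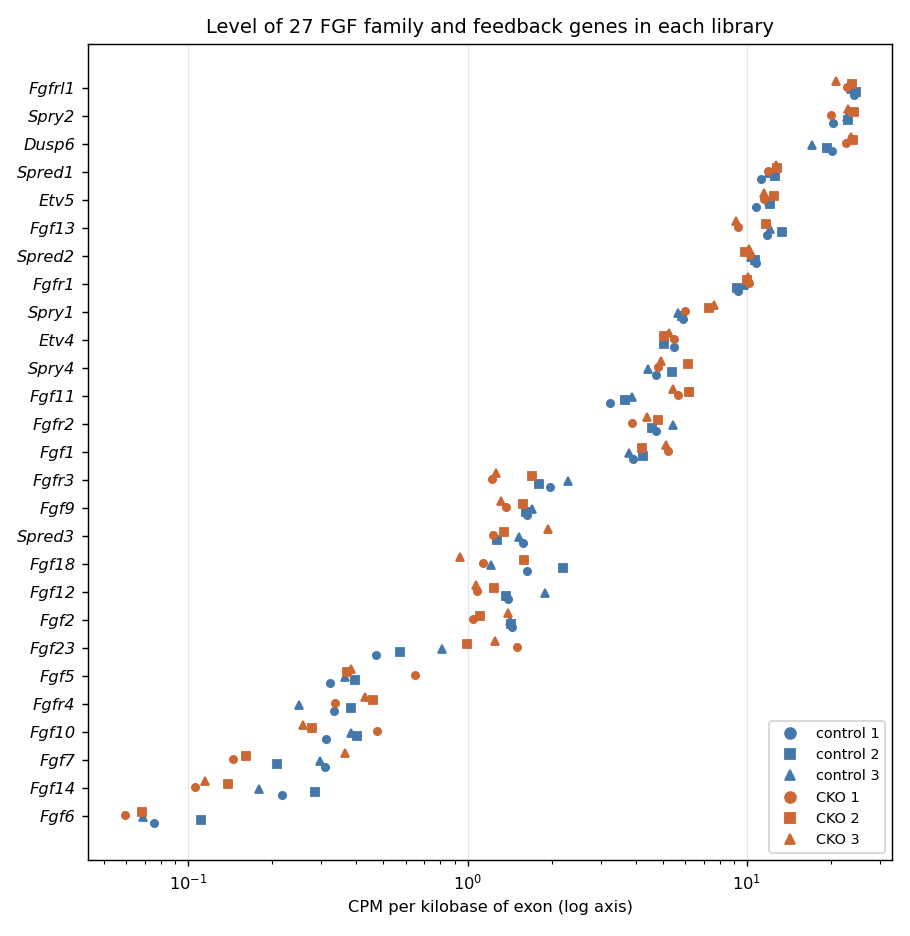
Level of each of the 27 tested members in CPM per kb of exon on a log axis, with 1 point per library for controls and CKO. Most receptors and feedback genes occupy the upper end and most secreted ligands the lower end, and libraries with 0 counts are not drawn.

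Among secreted ligands, 9 of 15 were tested and none passed the test, with 3 positive and 6 negative fold changes and a median of -0.22. At an unadjusted p under 0.05 there were 2, Fgf1 and Fgf23, and DESeq2 called 0. Fgf1 (chromosome 18, 38838673 to 38929472, minus strand) had CPM values of 21.3, 23.1 and 20.7 in controls and 28.4, 23.1 and 28.1 in CKO. CKO 1 and CKO 3 stood above all controls, while CKO 2 was level with control 2. Its log2FC was 0.29 (SE 0.10, adjusted p = 0.101), and without CKO 2 it was 0.38 and passed (adjusted p = 0.00904). With any other library left out, Fgf1 was at 0.23 to 0.34 and not called (adjusted p from 0.15 to 0.348). Fgf2, which like FGF1 binds heparan sulfate tightly and lacks a signal peptide, had 9.79, 9.69 and 9.62 CPM in controls and 7.12, 7.5 and 9.5 CPM in CKO. The controls were tightly grouped and every CKO library lay below them, with a log2FC of -0.26 (SE 0.14, adjusted p = 0.341). Fgf2 shares 640 exonic bases with Nudt6 on the opposite strand, out of 6782 exonic bases of its own, and reads on that stretch cannot be assigned without knowing whether counting used strand.

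Fgf9, the endocardial and epicardial mitogen of the myocardium, was measured at 7.6, 7.56 and 7.91 CPM in controls and at 6.4, 7.35 and 6.11 CPM in CKO. All CKO libraries were below the controls, CKO 2 by the least. The log2FC of Fgf9 was -0.22 (SE 0.15) and did not pass (adjusted p = 0.477). The summed markers of endocardium and endothelium, a source of FGF9, ran from 1400 to 1479 CPM in controls and from 1168 to 1370 CPM in CKO. Of these markers, 3 of 7 were called lower, all but Emcn had a negative log2FC, and the median was -0.20. The epicardial markers overlapped (378 to 409 and 355 to 404 CPM, 0 of 7 called). The part of either cell type in the values of Fgf9 was not tested.

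Fgf23, an endocrine ligand best known as the phosphate hormone of bone, had the largest positive change of the tested members. It was counted at 0.853, 1.04 and 1.47 CPM in controls and at 2.73, 1.8 and 2.27 CPM in CKO, so the groups did not overlap. Its log2FC of 1.03 (SE 0.32) did not pass (adjusted p = 0.0754), but did so without CKO 2 (1.16, adjusted p = 0.0311). The other 5 leave-one-out fits did not call Fgf23 (log2FC from 0.86 to 1.26, adjusted p from 0.105 to 0.255). The remaining tested ligands were at or below 1.99 CPM in the control mean. Fgf18 had a log2FC of -0.47 (SE 0.32, adjusted p = 0.484), and the groups overlapped. Fgf10, which acts through the FGFR2b receptor form, went from 1.68 ± 0.219 to 1.55 ± 0.549 CPM, Fgf7 from 0.88 ± 0.179 to 0.727 ± 0.4 CPM and Fgf5 from 0.899 ± 0.0922 to 1.17 ± 0.395 CPM (SD, n = 3), all with overlapping groups. Fgf6, a ligand of skeletal muscle, had 0 counts in CKO 3, which at this depth allows up to 0.0757 CPM, and its log2FC of -1.05 had an SE of 0.74 (adjusted p = 0.512). The value for Fgf6 was -0.41 without CKO 3 and -1.98 in limma-voom, and neither was called. Skeletal muscle markers summed to 5.19 to 6.12 CPM in controls and 3.37 to 5.40 CPM in CKO, and their part in the value was not tested.

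The 6 ligands below the count minimum were Fgf3, Fgf8, Fgf15, Fgf16, Fgf17 and Fgf22. Fgf8, the ligand of outflow tract progenitors, had 0, 1 and 1 counts in controls and 4, 5 and 12 in CKO. Every CKO library held more than any control, and the pooled ratio of CPM was 11 with a 95% exact interval of 2.7 to 97. Fgf16, a relative of Fgf9 expressed in heart muscle, had 1, 4 and 5 counts in controls and 34, 7 and 11 in CKO, with a ratio of 5.46 (95% exact interval 2.75 to 12.1). CKO 1 supplied most of these reads. These intervals cover counting error only and not the spread between hearts. With no count filter, edgeR gave Fgf16 an adjusted p of 0.0875 and Fgf8 one of 0.282. Without CKO 2, Fgf16 met the count minimum and was called (log2FC 2.74, adjusted p = 0.0482), but it was not called in the 3 fits without a control in which it was tested (adjusted p from 0.238 to 0.35). In each of these fits Fgf16 met the minimum only through CKO libraries, the group where it is high. Its call is therefore no independent sign of a difference. Fgf3, Fgf17 and Fgf22 had at most 10 counts in any library and overlapping groups, and Fgf15 had 1 count in all 6. Summed outflow tract markers ran from 106 to 135 CPM in controls and from 94.1 to 115 CPM in CKO, with 0 of 4 called. Among them Tbx1 had a log2FC of 0.89 with overlapping groups (adjusted p = 0.295), while Isl1, Sema3c and Rgs5 had negative ones. The part of these markers in the counts of Fgf8 was not tested.

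Of the 4 intracellular FGFs, 1 rose and none fell, with 3 negative fold changes and a median of -0.38. The shares over all tested genes were 3.03% called higher and 1.07% lower. Fgf11 (ENSMUSG00000042826.13, chromosome 11, 69796068 to 69801857, minus strand) had CPM values of 9.84, 11.1 and 11.8 in controls and 17.3, 18.9 and 16.5 in CKO. Every CKO library lay well above every control, and CKO 2, whose Trim28 lay in the control range, was the highest. The mean rose from 10.9 ± 1.01 to 17.6 ± 1.19 CPM (SD, n = 3), a log2FC of 0.68 (SE 0.11, adjusted p = 0.00125). The rise was called whichever of the 6 libraries was left out (largest adjusted p = 0.0158). With the ribosomal RNA share as a covariate it was 0.85 and not called (adjusted p = 0.0575). No exon of another annotated gene overlaps Fgf11.

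The other 3 members of the group were lower in every CKO library than in any control, and none passed. A lack of overlap, in either direction, held for 22.1% of all tested genes. Fgf13, on the X chromosome (59062145 to 59568071, minus strand), had 47.2, 53.7 and 48.6 CPM in controls and 37.2, 47.2 and 36.7 CPM in CKO. CKO 2 was all but level with control 1, and the other CKO libraries were clearly lower. Its log2FC was -0.31 (SE 0.09, adjusted p = 0.0714), and without CKO 2 it was -0.43 and called (adjusted p = 0.000476). Leaving out any other library gave -0.35 to -0.24 for Fgf13 and no call (adjusted p from 0.112 to 0.3). Fgf12 had 8.66, 8.52 and 11.8 CPM in controls and 6.71, 7.7 and 6.67 CPM in CKO, a log2FC of -0.46 (SE 0.15, adjusted p = 0.11). Fgf14 was sparse, at 0.903, 1.19 and 0.748 CPM in controls and 0.441, 0.581 and 0.48 CPM in CKO (log2FC -0.92, SE 0.44, adjusted p = 0.277). These genes are also active in neurons. The summed neural crest, glia and nerve markers were 20.8 to 26.4 CPM in controls and 23.8 to 26.9 CPM in CKO with 0 of 6 called, and their part was not tested.

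The makeup of the group differed between the genotypes while its sum overlapped. Per kb of exon, the 4 intracellular FGFs summed to 16.6 to 18.7 in controls and 15.7 to 19.3 in CKO. Fgf11 took 19.5% to 21.5% of this sum in controls and 32.1% to 35.3% in CKO. In the same sum Fgf13 took 67% to 71.5% in controls and 57.4% to 60.8% in CKO. Neither share overlapped between the groups. Both are parts of the same sum, so a higher Fgf11 by itself lowers the share of Fgf13, which was not called. The 2 shares are thus not separate results. Fgf13 was the most abundant of the 4 in each library.

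**Figure D3:**
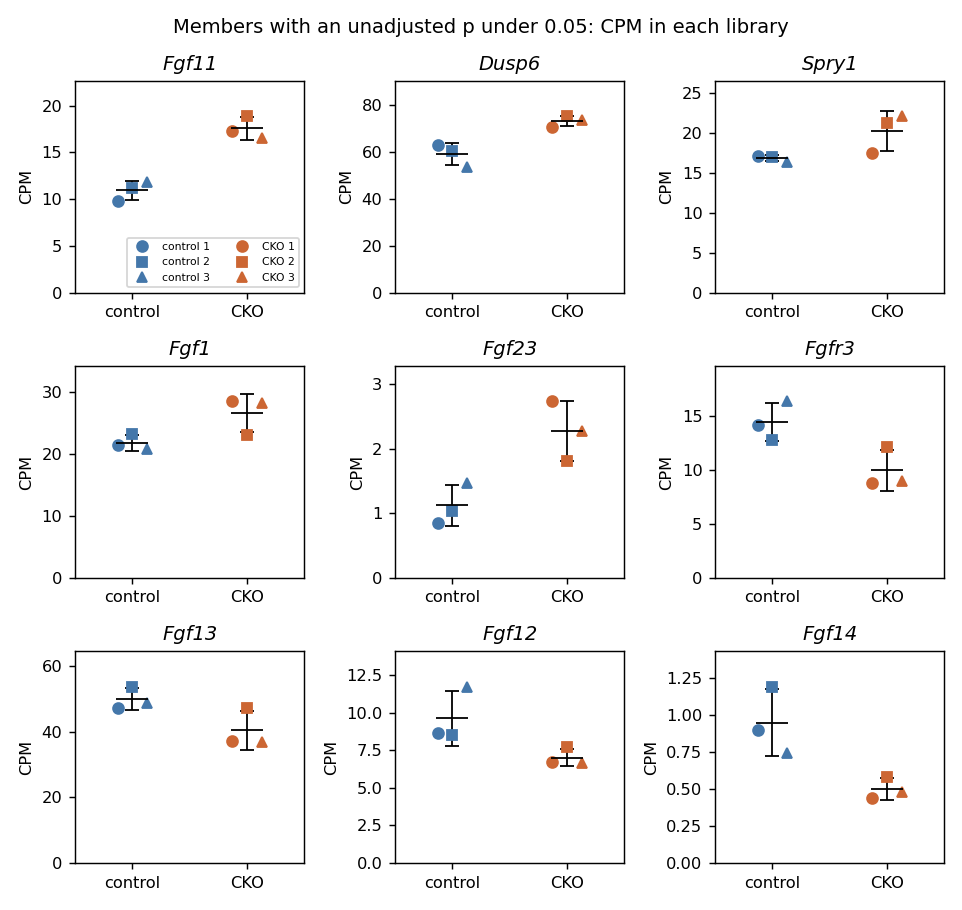
CPM in each library of the 9 members with an unadjusted p under 0.05, controls beside CKO, with the group mean as a line and the SD as a bar. Fgf11 and Dusp6 are higher and Fgfr3 is lower in every CKO library. CKO 2 is the CKO library nearest to the controls for Fgf1, Fgf23, Fgfr3, Fgf13, Fgf12 and Fgf14. For Fgf11 and Dusp6 it is the farthest from them.

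Of the 5 receptor genes, Fgfr3 alone passed the test, and the median log2FC of the 5 was -0.11. Fgfr3 (ENSMUSG00000054252.18, chromosome 5, 33721674 to 33737068, plus strand) had CPM values of 14.2, 12.9 and 16.4 in controls and 8.77, 12.2 and 9.05 in CKO. CKO 1 and CKO 3 were far under the controls, and CKO 2 was close under control 2. The mean fell from 14.5 ± 1.79 to 10 ± 1.91 CPM (SD, n = 3), a log2FC of -0.54 (SE 0.14, adjusted p = 0.0329). This call was kept in 2 of the 6 leave-one-out fits. It was -0.70 without CKO 2 (adjusted p = 0.0013) and was also called without control 2 (adjusted p = 0.0473). It was lost without control 1 (adjusted p = 0.0915), control 3 (0.182), CKO 1 (0.104) or CKO 3 (0.178), and with the ribosomal RNA covariate (-0.41, adjusted p = 0.615). Fgfr3 shares 998 exonic bases with G630022F23Rik on the opposite strand, which had too few counts to be tested.

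The other receptor genes did not pass. Fgfr1 (chromosome 8, 25513654 to 25575718), a receptor expressed in embryonic myocardium, was measured at 91.6, 90.8 and 96 CPM in controls and at 100, 98.9 and 99.9 CPM in CKO. Its groups did not overlap, but the difference was small (log2FC 0.10, SE 0.06, adjusted p = 0.348). Fgfr2 went from 50.7 ± 4.97 to 45 ± 4.76 CPM with overlapping groups (log2FC -0.17, adjusted p = 0.302). Fgfr4 was near the lower limit, at 1.14 ± 0.237 and 1.44 ± 0.229 CPM (log2FC 0.34, adjusted p = 0.67). Fgfrl1, the highest member in controls per kb of exon though not in CPM, was measured at 67.4, 68.3 and 65.7 CPM in controls and 63.3, 65.9 and 57.9 CPM in CKO, with overlapping groups (log2FC -0.11, SE 0.06, adjusted p = 0.418).

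Among the kinase receptors Fgfr1 to Fgfr4, the level per kb of Fgfr1 made up 54.9% to 57.7% of their sum in controls and 59% to 65% in CKO. Fgfr3 made up 11.3% to 12.9% in controls and 7.81% to 10% in CKO. Neither share overlapped between the groups. The annotated span of Fgfr2 runs into Ctbp2, with 314 shared exonic bases, so its length and these shares carry some doubt.

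The 9 feedback and target genes had 8 positive and 1 negative log2FC with a median of 0.05, and 1 passed the test. Dusp6 (ENSMUSG00000019960.8, chromosome 10, 99263231 to 99267489, plus strand) had CPM values of 62.9, 60.6 and 53.7 in controls and 70.6, 75.1 and 73.6 in CKO. All CKO libraries were above all controls, with control 3 the lowest and CKO 2 the highest. Mean CPM rose from 59.1 ± 4.78 to 73.1 ± 2.29 CPM (SD, n = 3), a log2FC of 0.31 (SE 0.07, adjusted p = 0.012). The call was kept in 4 of the 6 fits with 1 library left out and was lost without control 3 (0.24, adjusted p = 0.117) or CKO 3 (adjusted p = 0.0691). With the ribosomal RNA covariate it was 0.18 and not called (adjusted p = 0.695), nor was it with a covariate for Y-linked genes, which follows the sex of the embryos (0.33, adjusted p = 0.0595).

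None of the remaining feedback genes passed the test. Spry1, an inhibitor of RAS activation, was measured at 17.2, 17 and 16.5 CPM in controls and at 17.5, 21.3 and 22.1 CPM in CKO. CKO 1 was barely above control 1, and the other CKO libraries were clearly higher (log2FC 0.27, SE 0.10, adjusted p = 0.166). Spry1 shares 710 exonic bases with Gm42922 on the opposite strand. Spry2, the most abundant feedback gene in controls per kb, had 42.4, 47.9 and 47.5 CPM in controls and 41.7, 50.6 and 47.9 CPM in CKO, with overlapping groups (log2FC 0.03, SE 0.08, adjusted p = 0.919). Spry4 had a log2FC of 0.13 (adjusted p = 0.597). Spred1, Spred2 and Spred3, which hold back RAF, had log2FCs of 0.07, -0.07 and 0.05 (adjusted p of 0.631, 0.62 and 0.92). Etv4 and Etv5, the ETS factors downstream of FGF receptors, were at 16.2 ± 0.767 and 47.7 ± 3.03 CPM in controls and 16.3 ± 0.726 and 48.5 ± 2.49 CPM in CKO (SD, n = 3), with a log2FC of 0.02 for each (SE 0.10 and 0.07). Thus Dusp6 passed where the ETS factors and Spry2 had changes smaller than their errors. The difference between these genes was not tested.

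**Figure D4:**
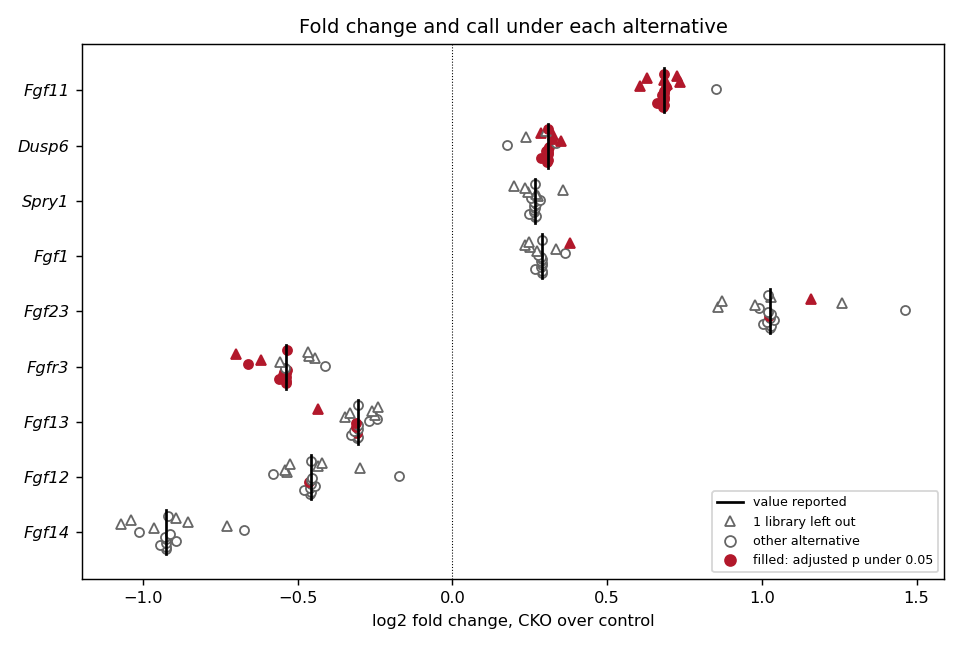
Log2FC of the 9 members with an unadjusted p under 0.05 as reported (line) and under the alternatives, with filled points where the gene was called. Fgf11 stays called in 17 of the 18, whereas the calls of Dusp6 and Fgfr3 come and go with single libraries and covariates.

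Other genes of the pathway were taken from 4 lists of 79 genes, of which 74 were tested, 5 rose and 2 fell. The shares over all tested genes were 4.1% called, 3.03% as higher and 1.07% as lower. These lists were chosen with earlier results of these data known. The heparan sulfate co-receptors and FGF-binding proteins had 2 higher and 2 lower among 15 tested (median 0.03). Gpc1, a glypican that carries heparan sulfate, rose from 186 ± 10.6 to 255 ± 18.6 CPM (SD, n = 3) with a log2FC of 0.46 (SE 0.06, adjusted p = 0.000179) and was called in all 18 alternatives. Sdc4, a syndecan, rose by 0.35 (adjusted p = 0.00752), a call that was lost without control 2 (0.0561) or CKO 3 (0.0707). Gpc3, a glypican better known for restraining growth, fell from 754 ± 10.9 to 651 ± 36.8 CPM (log2FC -0.21, adjusted p = 0.0233), and Flrt3, a membrane protein that binds FGF receptors, had a log2FC of -0.26 (adjusted p = 0.0386). The calls of Gpc3 and Flrt3 were kept in 2 and 1 of the 6 fits with a library left out (adjusted p up to 0.17 and 0.194). Sdc4, Gpc3 and Flrt3 were not called with either covariate, although their log2FC with the ribosomal RNA share was 0.37, -0.19 and -0.17 and with the Y-linked genes 0.31, -0.22 and -0.27. None of the 12 enzymes that make or edit heparan sulfate was called (median -0.03; 1 at an unadjusted p under 0.05, and 0 called by DESeq2), and the smallest adjusted p were those of Sulf2 (log2FC -0.13, adjusted p = 0.209) and Glce (-0.16, 0.316).

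None of the 26 adaptors and members of the RAS-ERK cascade was called by edgeR either, and their median was -0.01, with 5 at an unadjusted p under 0.05, a share near the 17.8% of all tested genes. Map2k1, the kinase that activates ERK, came nearest, with 98.1 ± 7.3 CPM in controls and 114 ± 3.55 CPM in CKO (log2FC 0.22, adjusted p = 0.052), and was the 1 gene of this list that DESeq2 called. Of 21 tested genes in the list of other ERK feedback and target genes, 3 rose and none fell, where 4.1% of all tested genes were called, and the median was 0.23. The groups did not overlap for 11 of the 21, all higher in CKO, where this held for 22.1% of all tested genes in either direction (2012 higher and 1864 lower). Dusp5, an ERK phosphatase of the nucleus, rose from 8.99 ± 0.884 to 16.4 ± 1.67 CPM (log2FC 0.87, SE 0.12, adjusted p = 0.000374). Egr1 and Ier3, immediate early genes that ERK and other signals induce, rose by 1.18 (adjusted p = 2.99e-07) and 0.93 (adjusted p = 8.83e-06). These 3 genes were called in all 18 alternatives, the ribosomal RNA covariate included. Summed macrophage markers ran from 83.5 to 91.2 CPM in controls and from 96.5 to 107 CPM in CKO with 2 of 6 called higher, and their part was not tested.

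**Figure D5:**
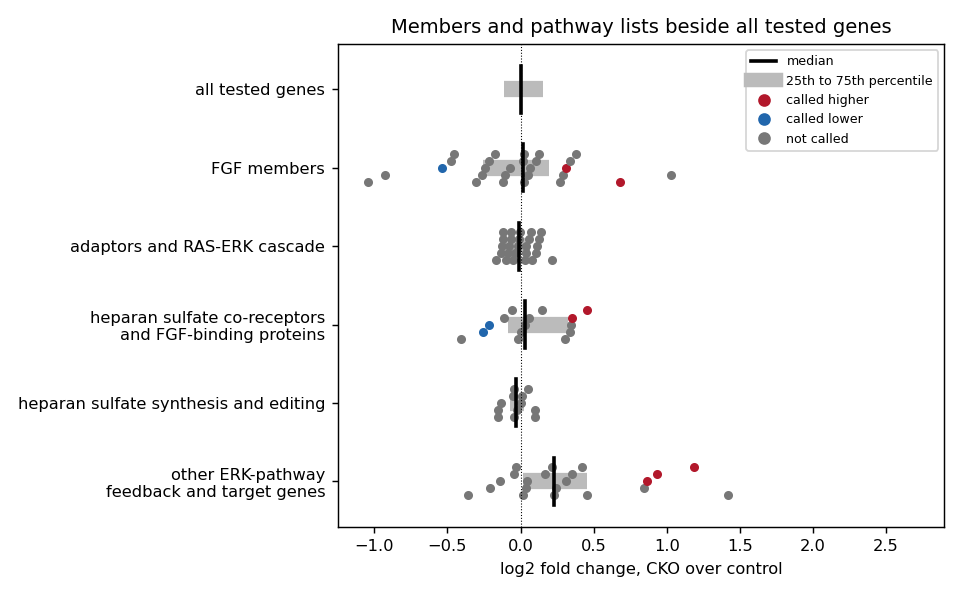
Log2FCs of the members and of the genes in the 4 pathway lists, 1 point per tested gene, with the median as a line and the middle of the distribution as a bar, beside all tested genes. The list of other ERK feedback and target genes has a median of 0.23, whereas the other lists and the members lie between -0.03 and 0.03.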

How the data were processed

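Values were the authors' deposited counts of reads for each gene symbol, raw per the labels and on mm10 per the submitters' processing notes. Aligner, counter, annotation and use of strand were not given in the sources used here. Library kits took 500 ng of total RNA per the labels' protocols. Groups follow the sample titles, with 3 libraries per group.

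Counts were tested with edgeR 4.0.16 in R 4.3.3. filterByExpr (minimum count 10, minimum total 15) left 17557 genes and removed 0.0756% of counts. Libraries were scaled by TMM. glmQLFit (robust, legacy=FALSE) had group as its only term, and the two-sided glmQLFTest was adjusted by Benjamini-Hochberg over all tested genes, with calls at an adjusted p under 0.05. The setting legacy=FALSE was chosen after both fits had been seen, and they call the same 3 members. SE was taken as log2FC over the root of F. The pipeline was tested on simulated counts. Lengths, positions and overlaps come from GENCODE M21.

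Ratios of pooled counts carry 95% exact intervals, and the floor for 0 is 3 counts per library, or 0.0752 to 0.0871 CPM. Both cover counting error only.

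Members, gene lists and markers were chosen with earlier results of these data known. Any tested member could be named, called members and the most abundant ligand, receptor and feedback gene were to be given per library, and each pathway list names its called members or otherwise up to 2 with the smallest adjusted p. Library values of further members were added after their values were seen. Alternatives were RLE, upper-quartile or no scaling, DESeq2 1.42.0, voom in limma 3.58.1, a non-robust and a legacy edgeR fit (the legacy one chosen after seeing the data), other filters, the replicate number as a block, covariates for ribosomal RNA and Y-linked genes, a threshold of 0.01 and leaving out each library.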

Additional observations from a re-analysis of the deposited data

How the results depend on the processing

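Fgf11 was called in 17 of 18 alternatives, Gpc1, Dusp5, Egr1 and Ier3 in all 18. Over all genes, 532 higher and 188 lower calls became 863 and 388 with no filter, 53 and 3 with the ribosomal RNA covariate, 272 and 35 with the Y-linked covariate, and 247 and 34 at an adjusted p under 0.01, and DESeq2 gave 311 lower. With 1 library left out they ranged from 255 to 1012 higher and 39 to 540 lower, the most without CKO 2. Members called higher (2) became 0 with the ribosomal RNA covariate, 1 with the Y-linked covariate and 1 at 0.01, and ranged from 1 to 5 with a library left out. The 5, without CKO 2, include Fgf16, which met the count minimum only through its counts in CKO and was not tested in the main fit. Members called lower (1) became 2 in DESeq2, 3 with no filter, 0 with the ribosomal RNA covariate and 0 at 0.01, and ranged from 0 to 2. Pathway genes called higher (5) became 8 with no filter and ranged from 4 to 11. Those called lower (2) became 1 with the replicate block, 0 with the ribosomal RNA covariate, 0 with the Y-linked covariate and 0 at 0.01, and ranged from 0 to 7. Apart from the stricter threshold, the cause of these moves was not tested.

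Directions turned in 5 uncalled members. With a library left out, the log2FC of Etv4 ranged from -0.025 to 0.052, Etv5 from -0.033 to 0.051, Spry2 from -0.035 to 0.093, Spred3 from -0.18 to 0.17 and Fgf10 from -0.45 to 0.054. Etv4 was also -0.0069 with no scaling, -0.077 with the ribosomal RNA covariate and -0.00015 with the Y-linked covariate, which gave 0.021 for Fgf10 and -0.095 for Spred3. None of the 3 called members and 7 called pathway genes turned.

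No pairing by replicate number was seen across the tested genes, as deviations of same-numbered libraries correlated at -0.00223 to 0.0167. A pairing that acts on only some genes could be missed by this correlation. With the replicate block, 518 genes were higher and 158 lower, and Fgf13 (adjusted p = 0.0273) was called in place of Fgfr3 (0.0509). Depth limits the ligands most, since 6 could not be tested and Fgf6 had an SE of 0.74.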
